A study of Homo sapiens with 7 samples.

Results

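The insulin-like growth factor (IGF) signalling genes examined here are 8 human genes: the receptors IGF1R and INSR, the receptor adaptors IRS1 and IRS2, and the binding proteins IGFBP2, IGFBP3, IGFBP4 and IGFBP5. They were chosen by name among 20163 protein-coding genes. A chromatin loop was counted for a gene when 1 of its 2 anchors lay over a 500 bp window centred on any annotated start site of that gene. This gave 52 of 163530 loops in Ishikawa cells, 55 of 42027 in T-47D and 36 of 149226 in LNCaP. Each loop carries the number of read pairs that join its anchors, so the values below describe contacts of promoters and not transcript levels.

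Contacts were measured by HiChIP, which joins DNA ends that lie close together in the nucleus and then selects fragments carrying acetylated lysine 27 of histone H3 (H3K27ac), a mark of active promoters and enhancers. Ishikawa is an endometrial adenocarcinoma line (4 samples, of which 2 were given DMSO as vehicle and 2 were given E2, the estrogen 17β-estradiol, at 10 nM, each for 1 h), T-47D is a breast carcinoma line that expresses the estrogen receptor (1 sample) and LNCaP is a prostate carcinoma line that expresses the androgen receptor (2 samples). For T-47D and LNCaP the labels name no treatment. Only 1 pooled list was used for each line, so DMSO and E2 could not be compared and no value has a replicate error. Intervals are 95% intervals that cover counting error only. Ishikawa chromatin was cut with DpnII and the other lines with MboI, and shearing, read length and sequencing depth differed along the same divide, so these cannot be told apart from the cell line in any comparison with Ishikawa.

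The lists held 1040329 read pairs in loops for Ishikawa, 351260 for T-47D and 1805322 for LNCaP, and loops with under 3 read pairs or a high false discovery rate had been removed. A gene at 0 therefore has no listed loop, and how many read pairs were removed is unknown. The median anchor measured 2.61 kb in T-47D, 3.23 kb in LNCaP and 5.10 kb in Ishikawa. Marker genes fitted the line names: PAX8 had 162 read pairs in Ishikawa but 0 elsewhere, GATA3 had 1063 in T-47D against 7 in Ishikawa and 0 in LNCaP, and KLK3 had 2936 in LNCaP against 6 in Ishikawa and 0 in T-47D. The Ishikawa list was made of 4 separately sorted parts. They could not be matched to samples and were summed.

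IGF1R and INSR are receptor tyrosine kinases at the cell surface. When IGF1, IGF2 or insulin binds, they phosphorylate IRS1 and IRS2, which pass the signal to PI3K, AKT and mTOR. The IGF binding proteins hold IGF1 and IGF2 outside the cell and limit or prolong their access to IGF1R. In breast and endometrial cells the pathway works beside estrogen signalling, and IGF1R, IRS1 and IGFBP4 are long known as estrogen-responsive genes in breast cancer cells. In prostate cells it interacts with androgen signalling.

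Promoter loops were present for 5 of the 8 genes in Ishikawa, with 7 in T-47D and 5 in LNCaP. Over all protein-coding genes the share with a loop was 58.1% in LNCaP, 57.3% in Ishikawa and 49.2% in T-47D. The loops of the 8 genes held 404 read pairs in Ishikawa, or 0.0388% of the list (exact binomial interval 0.0351 to 0.0428). They held 438 read pairs in T-47D, or 0.125% (0.113 to 0.137), and 443 in LNCaP, or 0.0245% (0.0223 to 0.0269). The T-47D share was therefore the highest, and the 3 intervals did not overlap. Promoter loops of all protein-coding genes made up 31988 of 42027 loops in T-47D and 90239 of 149226 in LNCaP. Promoters in general thus took a larger part of the loops in T-47D than in LNCaP (no count is given here for Ishikawa). The part of this in the share of the 8 genes was not tested. With only the 5'-most start site of each gene, the share was 0.109% in T-47D (0.0987 to 0.121), and the Ishikawa interval (0.0194 to 0.0253) and LNCaP interval (0.0182 to 0.0224) overlapped. In T-47D nearly all of it came from IGFBP4, IGF1R and IGFBP5, in Ishikawa from IGFBP4, IGF1R and INSR, and in LNCaP from IGF1R. IGFBP3, the main carrier of IGFs in blood, had no loop in any list.

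**Figure D1:**
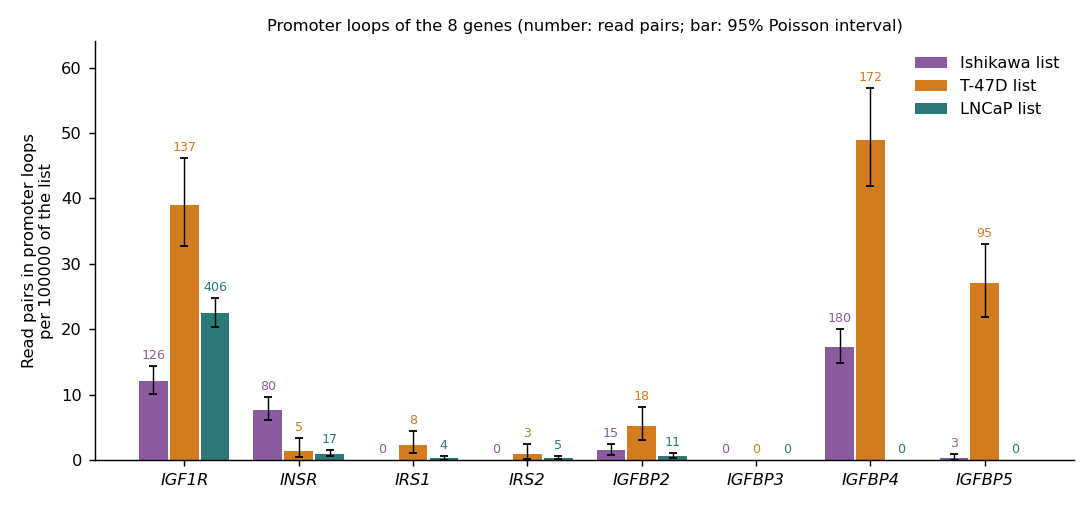
Read pairs in the promoter loops of each gene per 100000 read pairs of the list (vertical axis), for the Ishikawa, T-47D and LNCaP lists, with the number of read pairs above each bar and 95% Poisson intervals for counting error only. IGF1R was looped in every list, IGFBP4 in Ishikawa and T-47D, IGFBP5 almost entirely in T-47D, and INSR mainly in Ishikawa.

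Set per 100000 read pairs of the list, shares were compared for genes with at least 10 read pairs in either list of a pair, and a 4-fold difference was used as the mark, with a value of 0 counted as 3 read pairs. Between T-47D and LNCaP, 3 of 5 such genes (IGFBP2, IGFBP4 and IGFBP5) differed by that much, all higher in T-47D. Of the 11352 protein-coding genes compared by the same rule, 32.6% did. Between T-47D and Ishikawa, 2 of 5 did (INSR higher in Ishikawa, IGFBP5 higher in T-47D) against 57.2% of 11730 genes so compared. Between LNCaP and Ishikawa, 2 of 4 did (INSR and IGFBP4, both higher in Ishikawa) against 65.8% of 13421 genes so compared. The INSR difference between T-47D and Ishikawa did not reach 4-fold with only the 5'-most start sites. With 4 or 5 genes compared, these counts are descriptions of single genes, which follow.

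IGF1R (ENSG00000140443.15_14, chr15:99191768-99507759, plus strand) encodes the receptor for IGF1 and IGF2 and was the only one of the 8 genes with a large number of loops in every list. Its promoter loops held 126 read pairs in 21 loops in Ishikawa, with 137 in 18 loops in T-47D and 406 in 29 loops in LNCaP. Per 100000 read pairs this was 39.0 (Poisson interval 32.7 to 46.1) in T-47D, 22.5 (20.4 to 24.8) in LNCaP and 12.1 (10.1 to 14.4) in Ishikawa. The order was T-47D, LNCaP, Ishikawa, with no overlap of these intervals. With only the 5'-most start site, IGF1R had 23.6 in T-47D (18.8 to 29.3), 18.2 in LNCaP (16.3 to 20.2) and no loop in Ishikawa, so the separation of T-47D from LNCaP rested on internal start sites. Over the 4 parts of the Ishikawa list the values were 8.93, 15.5, 15.5 and 11.5. IGF1R had more read pairs than 96.0% of protein-coding genes in the Ishikawa list, 96.8% in that of T-47D and 95.3% in that of LNCaP.

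The annotation gives IGF1R 16 start sites, and the set under loop anchors differed between lines, with some in common. Both T-47D and LNCaP had an anchor over the 5'-most start. Both also had one over an internal start at +268 kb, with 1 loop of 4 read pairs in T-47D and 3 loops with 10 in LNCaP. The internal start at +304 kb lay under an anchor in both LNCaP and Ishikawa. In T-47D, the anchor over the 5'-most start held 12 loops with 83 read pairs, and an anchor over an internal start at +225 kb held 7 loops with 61. In LNCaP, the 5'-most start held 18 loops with 328 read pairs, and an internal start at +304 kb held 9 loops with 74. In Ishikawa, no anchor lay over the 5'-most start, the nearest being 1.87 kb from its window. All 21 Ishikawa loops came instead from 5 anchors over internal start sites between +242 and +304 kb, close to the 3' end of the gene. Loops between these anchors accounted for part of the Ishikawa signal, and the strongest loop of all (24 read pairs) ran from the anchor at +275 kb to an exon-containing anchor at +281 kb. An annotated internal start is not evidence of a transcript there.

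**Figure D2:**
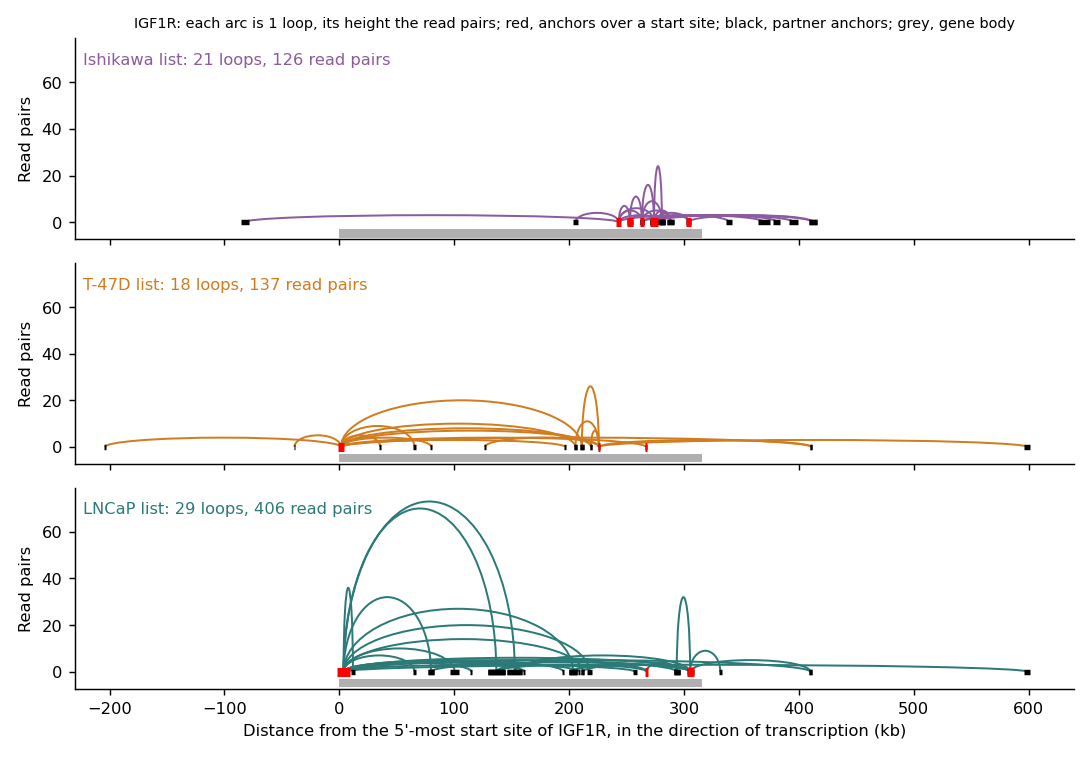
Promoter loops of IGF1R in the 3 lists, with distance from the 5'-most start site in kb on the horizontal axis and the height of each arc giving its read pairs. Ishikawa loops crowd at the 3' end of the gene, whereas LNCaP loops with 70 and 73 read pairs and T-47D loops with up to 20 read pairs leave the 5' start.

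Most IGF1R contacts stayed within its own gene body: 14 of 21 loops in Ishikawa, with 13 of 18 in T-47D and 25 of 29 in LNCaP. In LNCaP, the 3 strongest loops from the 5' start reached intronic anchors at +153 kb (73 read pairs), +137 kb (70) and +11.9 kb (36). The loops at +153 and +137 kb exceeded 98.8% and 98.6% of LNCaP loops of like span (a similar distance between anchors), whose median was 5 read pairs. Their anchors were wide, at 11.6 kb over the start and 13.1 and 14.7 kb at the partners, against a list median of 3.23 kb. The +11.9 kb loop exceeded 82.1% of loops of like span, whose median was 12 read pairs. Loops of like span, here and below, were not matched for anchor width, and its part in these ranks was not tested. The T-47D list had no anchor at the +153 or the +137 kb region. In T-47D, the intronic anchor at +211 kb was joined to the internal start at +225 kb by 26 read pairs, above 88.6% of loops of like span. It was joined to the 5' start by 20, above 97.7% of loops of like span. The next was the intronic anchor at +206 kb, with 11 and 10 read pairs. This stretch between +204 and +219 kb was also contacted in LNCaP, by 27, 14 and 20 read pairs from the 5' start.

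Partner anchors of the same gene were joined into 1 region wherever they overlapped at all. Of 13 such regions contacted in more than 1 list, 8 belonged to IGF1R, 4 to IGFBP4 and 1 to INSR. The IGF1R region chr15:99477233-99487967 joins an Ishikawa and a LNCaP anchor that meet only at their edges. Of the IGF1R regions, 2 were contacted in all 3 lists. The intronic region chr15:99391721-99401006 had 4 read pairs with IGF1R starts in Ishikawa, with 21 in T-47D and 37 in LNCaP. Of the LNCaP read pairs, 4 came from an anchor that met the Ishikawa anchor only at its edge. The region chr15:99600413-99607765, about +410 kb and beyond the end of the gene, had 6, 7 and 10. Of 11 distal partner anchors of IGF1R in T-47D (anchors over no start site of a protein-coding gene), 6 overlapped a LNCaP anchor (54.5%, against 39.0% of all T-47D distal anchors), and all 6 were joined to IGF1R in LNCaP as well. In both T-47D and LNCaP, an anchor over the starts of TTC23 and LRRC28, at +599 kb, was joined to IGF1R by 3 read pairs, the minimum. The IGF1R partners were joined to each other in 62 of 153 possible pairs in LNCaP (40.5%, against a median of 43.4% for genes with 10 to 20 partners) and in 17 of 66 in T-47D (25.8%, against 41.8%), so at or below the usual share. In Ishikawa 9 of 36 pairs were joined.

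The motifs searched in the anchors are listed here, on both strands, as letters only: the estrogen response element (GGTCA and TGACC with 3 bases between), the androgen response element (GNACA and TGTNC with 3 bases between), the forkhead motif TGTTTAC bound by FOXA1 and its relatives, and the AP-1 motif TGANTCA. Both of the strongest LNCaP partners of IGF1R held 1 match to the androgen response element. They are wide anchors (13.1 and 14.7 kb), and 22.6% of LNCaP distal anchors of like width held such a match, for either width. Across the distal partners of all 8 genes in LNCaP there were 4 matches in 112 kb, or 0.0356 per kb, against 0.0217 per kb over all LNCaP distal anchors. The plus strand of GRCh37 is printed 5′ to 3′ to show these letters in context, with matches in capitals.
IGF1R +153 kb, LNCaP, chr15:99345436-99345635, androgen response element: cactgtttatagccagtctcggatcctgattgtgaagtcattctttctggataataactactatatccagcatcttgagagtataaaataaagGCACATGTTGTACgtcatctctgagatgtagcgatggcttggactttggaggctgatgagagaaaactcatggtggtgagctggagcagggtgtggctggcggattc
IGF1R +137 kb, LNCaP, chr15:99332393-99332592, androgen response element: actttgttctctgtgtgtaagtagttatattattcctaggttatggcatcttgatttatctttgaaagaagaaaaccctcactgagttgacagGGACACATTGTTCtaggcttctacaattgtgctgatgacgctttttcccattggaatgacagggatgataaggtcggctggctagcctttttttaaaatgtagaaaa

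INSR (ENSG00000171105.14_12, chr19:7112266-7294425, minus strand), the insulin receptor, forms hybrids with IGF1R. It had 80 read pairs in 12 loops in Ishikawa, with 5 in 1 loop in T-47D and 17 in 2 loops in LNCaP. Per 100000 read pairs this was 7.69 (6.10 to 9.57), 1.42 (0.462 to 3.32) and 0.942 (0.549 to 1.51). Ishikawa was thus 5.40-fold above T-47D and 8.17-fold above LNCaP, while T-47D and LNCaP had overlapping intervals. With only the 5'-most start site, Ishikawa had 4.61 (3.40 to 6.12), which was 3.24-fold above T-47D and 4.90-fold above LNCaP. Other loops within 1 Mb of the start held 118 read pairs per 100000 in Ishikawa, with 119 in T-47D and 108 in LNCaP. The part of the region in the INSR difference was not tested. In Ishikawa the signal was uneven over the 4 parts of the list, at 3.35, 3.33, 15.5 and 7.01 per 100000, and without the third part it was 5.37, or 3.77-fold above T-47D.

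In Ishikawa, the 5' start of INSR held 6 loops with 48 read pairs and an internal start at +151 kb held 7 loops with 35. Its strongest loop joined the 5' start to an intronic anchor at +6.44 kb (20 read pairs, above 90.5% of loops of like span). Loops of 8 read pairs reached intronic or exonic anchors of INSR at +16.9, +135 and +161 kb, and another with 8 read pairs reached the start of ARHGEF18 at -117 kb. ARHGEF18 was also the gene that shared the most partner anchors with INSR in Ishikawa, 6 of 10. T-47D and LNCaP had a different and common contact. Their 5' start was joined to the same intronic region, chr19:7196184-7199511 at about +96.5 kb, by 5 read pairs in T-47D and 12 in LNCaP. These loops exceeded 49.3% and 79.9% of loops of like span, respectively, and the T-47D median was also 5 read pairs. The Ishikawa list had no anchor in this region. The LNCaP anchor there holds 1 forkhead match at its edge, and 50.8% of LNCaP distal anchors of like width hold a match. This match lies outside the T-47D anchor, which starts at chr19:7196414. It is printed in capitals, GTAAACA being the motif read from the other strand.
INSR +96.6 kb, LNCaP, chr19:7196304-7196503, forkhead: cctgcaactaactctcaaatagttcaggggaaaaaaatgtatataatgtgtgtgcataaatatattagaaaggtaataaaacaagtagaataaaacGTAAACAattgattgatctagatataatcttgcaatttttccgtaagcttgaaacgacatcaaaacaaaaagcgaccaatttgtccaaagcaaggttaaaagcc

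IRS1 (chr2:227596028-227664536) and IRS2 (chr13:110405042-110438930), the adaptors that carry the signal from both receptors to PI3K, were barely looped. IRS1 had 8 read pairs in 2 loops in T-47D and 4 in 1 loop in LNCaP. IRS2 had 3 read pairs in 1 loop in T-47D and 5 in 1 loop in LNCaP. Ishikawa had 0 for both. In T-47D, IRS1 was joined to an anchor at +7.90 kb within the gene (5 read pairs) and to the start of RHBDD1, a rhomboid protease, at -35.4 kb (3 read pairs). In LNCaP it was joined to an anchor at +62.5 kb near its own 3' end (4 read pairs). None of these loops exceeded the median of loops of like span. The nearest Ishikawa anchor lay 0.813 kb from the window at the IRS1 start and 8.45 kb from that of IRS2. T-47D had only 1 other loop within 1 Mb of the IRS1 start, with 5 read pairs.

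IGFBP2 and IGFBP5 lie next to each other on chromosome 2, at chr2:217497551-217529159 (plus strand) and chr2:217536828-217560272 (minus strand), with their 3' ends facing. IGFBP2 had low values in every list: 15 read pairs in Ishikawa, with 18 in T-47D and 11 in LNCaP, each in 3 loops. Per 100000 this was 1.44 (0.807 to 2.38), 5.12 (3.04 to 8.10) and 0.609 (0.304 to 1.09), so that T-47D was 8.41-fold above LNCaP. Other loops within 1 Mb of the start held 233 read pairs per 100000 in T-47D against 32.3 in LNCaP and 43.9 in Ishikawa, and the part of this regional difference in the IGFBP2 value was not tested. Its partners differed in every list. In T-47D, the strongest lay at +32.8 kb between the 2 genes (9 read pairs), in LNCaP at -36.2 kb (5) and in Ishikawa, where only an internal start at +26.8 kb was covered, at +6.94 kb (8).

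IGFBP5 (ENSG00000115461.5_11), a binding protein that also attaches to the extracellular matrix, had 95 read pairs in 13 loops in T-47D, 3 read pairs in 1 loop in Ishikawa and 0 in LNCaP. The T-47D value of 27.05 per 100000 (21.9 to 33.1) was 93.8-fold that of Ishikawa, where the single loop sat at the minimum. In LNCaP, where no loop was listed, the nearest anchor lay 54.0 kb from the start. Other loops within 1 Mb of the start were also more frequent in T-47D, at 221 read pairs per 100000 against 45.4 in Ishikawa and 33.0 in LNCaP, and the part of this regional difference in the promoter value was not tested.

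The T-47D contacts of IGFBP5 were long. Their median span was 621 kb, against 163 kb for all T-47D loops of the 8 genes, and the longest reached 1013 kb. Of the 13 partners, 12 lay upstream, and 11 loops passed the start of another gene, TNP1 or IGFBP2. TNP1, a protein of maturing sperm, lies between IGFBP5 and a wide stretch without named protein-coding genes that ends at TNS1. Of the upstream partners, 10 lay in that stretch, from -396 to -1011 kb. Non-coding genes were not examined there. The strongest loop joined the promoter to chr2:217954883-217958490 at -396 kb with 26 read pairs, above 99.1% of T-47D loops of like span, whose median was 4. The next had 10 read pairs each, at -553 and -630 kb. The -396 kb anchor carried 17 T-47D loops with 255 read pairs, and the only protein-coding starts joined to it were IGFBP5 and, with 3 read pairs at +459 kb from its own start, IGFBP2. The partners were also joined to each other: 39 of 78 possible pairs formed a loop, against a median of 41.8% for T-47D genes with 10 to 20 partners.

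**Figure D3:**
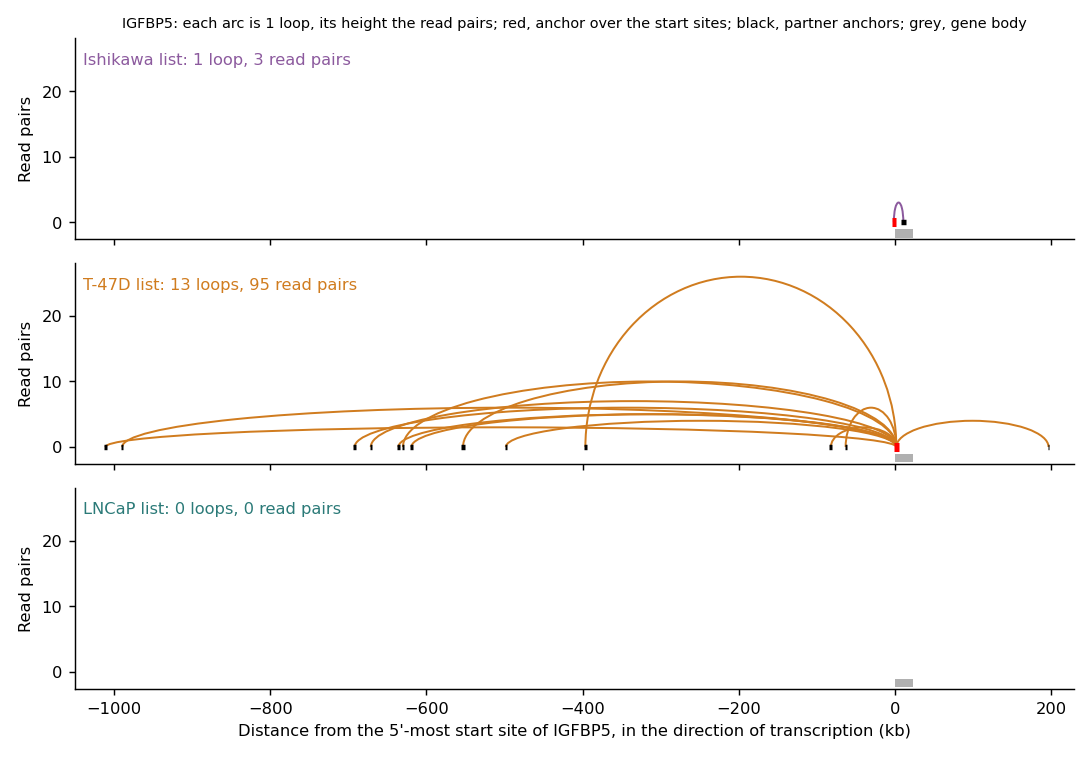
Promoter loops of IGFBP5 by distance from its start site in kb, with negative values upstream and arc height giving read pairs. T-47D has 12 upstream loops of up to 1013 kb, led by the loop of 26 read pairs at -396 kb, Ishikawa has 1 loop of 3 read pairs and LNCaP has none.

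These distal regions were scarce in the other lists. Of the 12 distal partners of IGFBP5 in T-47D, 1 overlapped a LNCaP anchor and 2 overlapped an Ishikawa anchor, or 8.33% and 16.7%, against 39.0% and 39.2% of all T-47D distal anchors. The LNCaP anchor was the one at -396 kb, with 2 loops and 7 read pairs and no protein-coding start among its partners. This -396 kb anchor also held a full match to the estrogen response element, the only such match among the distal partners of the 8 genes in any list. In T-47D, 28 of 2376 distal anchors of like width, or 1.18%, held one. A forkhead match lay in the same anchor, as in 45.7% of anchors of like width. Its sequence around the estrogen response element is printed because this contact leads the IGFBP5 result. The IGFBP5 promoter is printed with it (250 bases before to 50 bases after the 5'-most start, read along the gene), and it held no match to any motif searched.
IGFBP5 -396 kb, T-47D, chr2:217957373-217957572, plus strand, estrogen response element in capitals: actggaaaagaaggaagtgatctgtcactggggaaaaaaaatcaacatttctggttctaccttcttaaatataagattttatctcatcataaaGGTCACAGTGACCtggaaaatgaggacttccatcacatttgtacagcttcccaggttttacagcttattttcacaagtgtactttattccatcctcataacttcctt
IGFBP5 promoter, chr2:217560223-217560522, minus strand: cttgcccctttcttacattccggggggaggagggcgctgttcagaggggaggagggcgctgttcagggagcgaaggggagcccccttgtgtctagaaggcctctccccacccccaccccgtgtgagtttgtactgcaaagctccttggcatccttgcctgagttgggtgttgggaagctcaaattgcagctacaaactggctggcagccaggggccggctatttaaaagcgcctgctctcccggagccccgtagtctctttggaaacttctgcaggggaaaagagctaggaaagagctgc

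IGFBP3 (chr7:45951844-45961473) had no loop in any list, with either the 7 annotated start sites or wider windows. In no list did an anchor touch its start windows. The nearest anchor lay 0.917 kb away in LNCaP, 11.9 kb in Ishikawa and 152 kb in T-47D. Other loops within 1 Mb held 6.26 read pairs per 100000 in T-47D, 11.3 in LNCaP and 50.3 in Ishikawa.

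IGFBP4 (ENSG00000141753.7_6, chr17:38599702-38613977, plus strand), a binding protein that mostly restrains IGF action until the protease PAPPA cleaves it, had the most read pairs of the 8 genes in Ishikawa and T-47D and 0 in LNCaP. It had 180 read pairs in 15 loops in Ishikawa and 172 in 17 loops in T-47D. Per 100000 this was 17.3 (14.87 to 20.02) and 49.0 (41.9 to 56.9), above 97.7% and 98.0% of genes, respectively. LNCaP was not bare around the gene: its nearest anchor lay 3.69 kb from the start window, and 218 loops with 2157 read pairs lay within 1 Mb. That regional signal was 119 read pairs per 100000 in LNCaP, 165 in Ishikawa and 946 in T-47D, and its part in the T-47D promoter value was not tested. Over the 4 parts of the Ishikawa list, IGFBP4 had 10.0, 16.6, 30.9 and 14.5 per 100000.

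**Figure D4:**
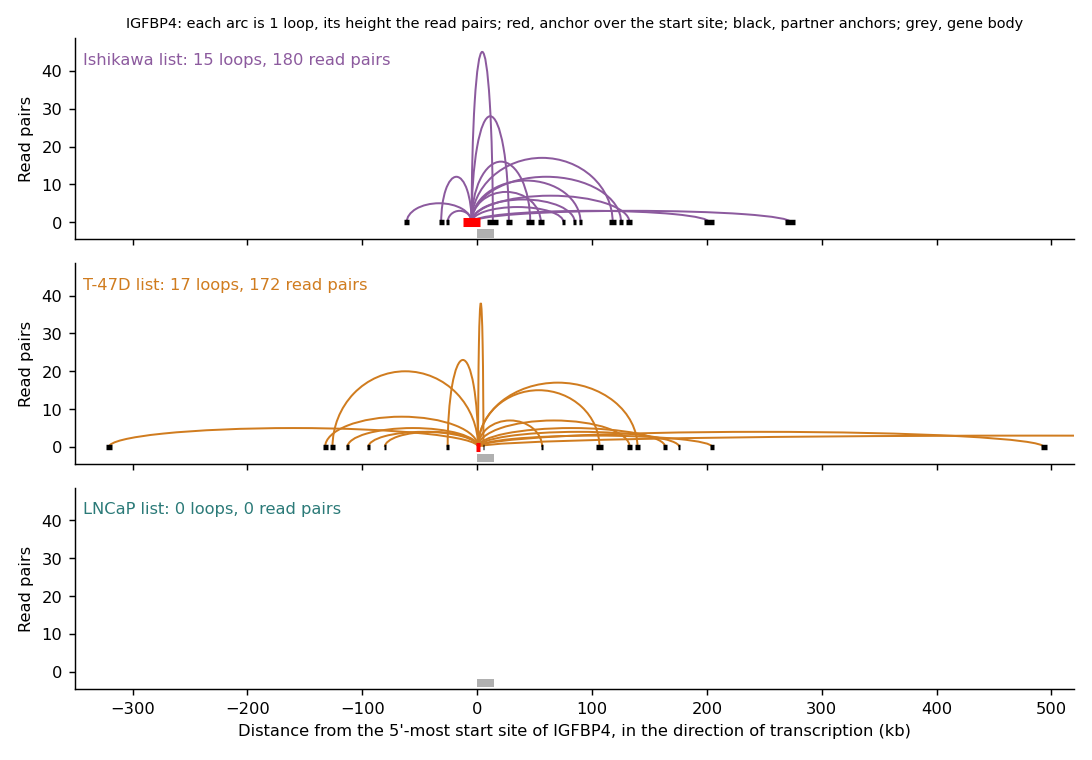
Promoter loops of IGFBP4 by distance from its start site in kb, with arc height giving read pairs (1 further T-47D loop of 3 read pairs runs to +972 kb, beyond the axis). Ishikawa loops lead to close downstream anchors of 45 and 28 read pairs, T-47D loops reach both sides, and LNCaP has none.

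Ishikawa and T-47D reached partly different partners from the IGFBP4 start. In Ishikawa, the strongest was an anchor over the 3' end of the gene at +13.7 kb (45 read pairs). This loop was above 99.3% of loops of like span, with a partner anchor 9.78 kb wide against a list median of 5.10 kb. Next came an anchor outside named protein-coding genes at +27.6 kb (28) and one over the start of CCR7, a chemokine receptor gene, at +118 kb (17). In T-47D, the strongest was an intronic anchor at +5.48 kb (38 read pairs), followed by the start of TOP2A, which encodes a DNA topoisomerase of dividing cells, at -25.7 kb (23) and a start of RARA, the retinoic acid receptor alpha gene, at -126 kb (20). The +5.48 kb, TOP2A and RARA loops exceeded 84.2%, 92.2% and 97.0% of loops of like span. The Ishikawa promoter anchor was 14.7 kb wide against 3.36 kb in T-47D, with the extra width upstream of the gene.

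RARA and IGFBP4 shared partners in T-47D. Of the 17 partner anchors of IGFBP4, 15 were also joined to RARA, which had 39 partners in all. RARA shared the most among 29 genes that shared partner anchors with IGFBP4 there. The IGFBP4 partners included anchors over RARA starts. The RARA anchor at -126 kb carried 42 loops with 737 read pairs in T-47D. Among the IGFBP4 partners, 80 of 136 possible pairs formed a loop, or 58.8%, against a median of 41.8% for T-47D genes with 10 to 20 partners. In Ishikawa the corresponding share was 18 of 105, or 17.1%, against a median of 24.4%. The T-47D partner regions were not absent from LNCaP: 5 of 11 distal ones overlapped a LNCaP anchor (45.5%, against 39.0% of all T-47D distal anchors). Some were joined there to TOP2A, RARA or TNS4. None could be joined to IGFBP4, because no LNCaP anchor lay over its start. The LNCaP anchor over the TOP2A start had 7 loops with 46 read pairs.

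The promoter of IGFBP4 is shown because it was looped in Ishikawa and T-47D. It held a TATAAA box whose first base lay at -29 from the start, and 7.56% of all promoters held TATAAA anywhere in the same 300 bases (a search chosen after the sequence was seen). IGFBP3, which had no loop in any list, also held TATAAA, with its first base at +39 from its 5'-most start.
IGFBP4 promoter, chr17:38599452-38599751, plus strand, TATAAA in capitals: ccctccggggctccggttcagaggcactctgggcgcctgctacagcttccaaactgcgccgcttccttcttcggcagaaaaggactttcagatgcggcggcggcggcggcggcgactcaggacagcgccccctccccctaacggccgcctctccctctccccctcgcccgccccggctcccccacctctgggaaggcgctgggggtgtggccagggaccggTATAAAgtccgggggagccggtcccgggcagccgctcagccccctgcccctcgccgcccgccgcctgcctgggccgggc

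The promoters themselves were searched for the same motifs. In windows of 500 bp at the 5'-most start, no gene of the 8 had a match to the estrogen or androgen response element or to AP-1, motifs found in 0.0744%, 0.610% and 9.08% of all promoters. IGF1R and INSR each had 1 forkhead match just downstream of the start, at +48 and +58 bp, and 3.87% of promoters had one. Over 300 bases, the G and C content ranged from 45.3% in IGFBP3 to 79.7% in IGF1R, with a median of 60.3% over all promoters.

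Whether a loop of these genes in T-47D or LNCaP was found in another list was asked last. A loop counted as found when both anchors overlapped the anchors of 1 loop there. Of the 55 T-47D loops, 7 were found in LNCaP, or 12.7% (Wilson interval 6.30 to 24.0), against 45.9% of all T-47D promoter loops. IGF1R gave 6 of them and INSR 1. Of the others, 30 belonged to IGFBP4 and IGFBP5, which had no LNCaP loop. Leaving those genes out, 7 of 25 were found, or 28.0% (14.3 to 47.6), against 49.0% for all genes with a loop in both lists. T-47D loops longer than 163 kb were found in LNCaP in 4 of 27 cases for the 8 genes and in 34.6% of cases for all genes. In Ishikawa, 4 of the 55 T-47D loops were found, or 7.27% (2.86 to 17.3), against 10.3% of T-47D promoter loops, and all 4 were IGFBP4 loops, to TOP2A, to a TNS4 intron at +56.6 kb, to +133 kb and to SMARCE1 at +205 kb. Of the 36 LNCaP loops, 1 was found in Ishikawa, or 2.78% (0.492 to 14.2), against 7.37%. Loops of 1 promoter share an anchor, so these are not independent counts.

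**Figure D5:**
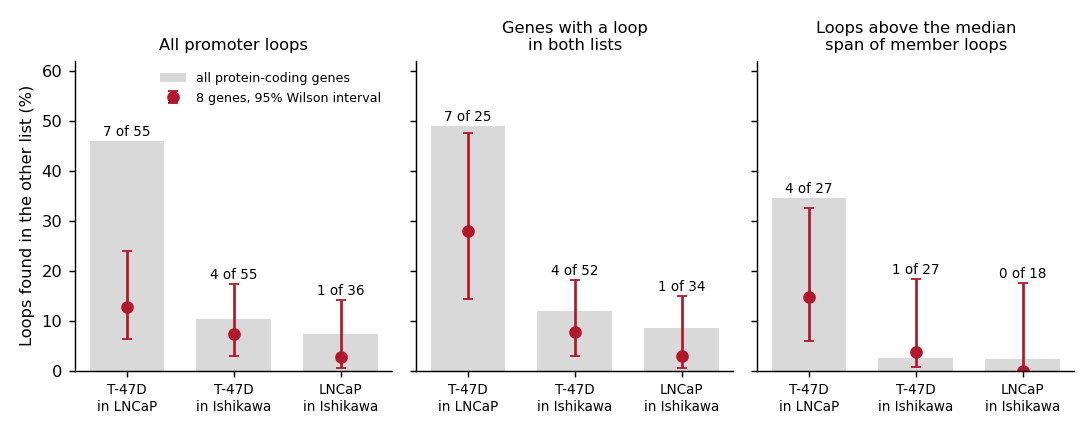
Percent of loops of 1 list found in another (vertical axis), for the 8 genes (points with 95% Wilson intervals and counts) and for all protein-coding genes (grey bars), over all promoter loops, genes looped in both lists, and loops above the median span of the 8 genes. For T-47D loops in LNCaP the points lie at 12.7%, 28.0% and 14.8%, below bars at 45.9%, 49.0% and 34.6%.

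A wider list of 41 genes of the pathway (other ligands, receptors and binding proteins, adaptors, PI3K, AKT, mTOR and FOXO genes) was counted in the same way. A promoter loop was present for 27 of them in LNCaP (65.9%), 28 in Ishikawa (68.3%) and 29 in T-47D (70.7%). Over all protein-coding genes the shares were 58.1%, 57.3% and 49.2%, in the same order. The median was 10 read pairs in Ishikawa, with 18 in T-47D and 43 in LNCaP, against medians of 4, 0 and 13 over all genes and of 9, 13 and 4.5 over the 8 genes. The leading genes differed by line. In Ishikawa they were the adaptor GRB2 (364 read pairs) and the kinase genes PIK3CA (178) and AKT2 (116). In T-47D they were STC2, a secreted inhibitor of PAPPA (491), the adaptor SHC1 (212) and AKT1 (174). In LNCaP they were the receptor-binding inhibitor GRB10 (1499), SHC1 (955) and PIK3CB (603). Of the ligands, which were added to the named genes after their values were seen, IGF1 had 10 read pairs in Ishikawa and 43 in LNCaP, IGF2 had 3 in T-47D, and INS had none in any list.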

How the data were processed

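H3K27ac HiChIP of 7 samples was analysed as 1 loop list per cell line. The authors mapped reads to hg19 (GRCh37) with HiC-Pro, called loops with hichipper, removed loops under 3 read pairs or with a high false discovery rate and pooled samples. Versions are not given in the sources used here. The deposited value is a count of read pairs per loop, not scaled for depth, so shares of each list's total were compared. Distinct pairs of different anchors on 1 chromosome were kept, Ishikawa parts were summed, and coordinates are counted from 1. All anchor edges of the 8 genes lay within 5 bases of a GATC. Start sites came from GENCODE lifted to GRCh37. No other column of sample values was left out. All 8 genes, the 3 strongest partners per gene and list, recurrent partners, genes over them, and genes sharing most partners were named. The genes and lists were chosen with earlier results of these data known. Python 3.11, numpy 2.4.6, pandas 2.3.3 and scipy 1.17.1 were used. Counting was checked on simulated loops. With 1 list per line no test was run. Intervals are Poisson, Clopper-Pearson or Wilson. As alternatives, loops needed 5 or 10 read pairs, lists were thinned to 351260 (median of 20 draws), and the others were spans of 20 kb to 1 Mb, promoters of 2 kb, 1 start site per gene, anchors overlapping by 50% of both, Ishikawa loops in 2 or more parts, and each part left out. Some sequences are not reported here.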

Additional observations from a re-analysis of the deposited data

Results flagged for a closer look

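Read pairs that joined an anchor to itself were outside the loops counted above. At anchors over start sites of the 8 genes they came to 132 in T-47D and 137 in Ishikawa, a signal in data that no comparison used. In Ishikawa they lay at IGFBP4 (101), INSR (19) and IGF1R (17). In T-47D they lay at IGF1R (51), IGFBP5 (43), IGFBP4 (12), IRS2 (12), IGFBP2 (8), INSR (3) and IRS1 (3). The LNCaP list held no such pairs anywhere, so the lists cannot be compared on them.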

How the results depend on the processing

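No paired analysis was possible because each list pools its samples and carries no replicate number. Of 77 values recomputed for the 9 summary results, 50 stayed within the interval of the reported value (or within 1.5 times a count) and 27 moved. Genes with a loop numbered 2 in LNCaP and 3 in each other list at 10 or more read pairs, 1 in LNCaP (IGF1R) after thinning to the shallowest list, and 3 in Ishikawa with 1 start site per gene. With 1 start site, the share of list read pairs was 0.0202% in LNCaP, 0.0222% in Ishikawa and 0.109% in T-47D. With loops of 20 kb to 1 Mb it was 0.148% in T-47D and 0.0271% in LNCaP. In Ishikawa it was also 0.0450% at 5 or more read pairs, 0.0458% at 10 or more, 0.0457% after thinning, 0.0434% with loops in 2 or more parts, 0.0442% without part 1 and 0.0310% without part 3. T-47D loops found in LNCaP fell to 1.82% when anchors had to overlap by 50% of both, against 20.3% of all promoter loops. T-47D loops found in Ishikawa came to 0% at 10 or more read pairs, 1.82% after thinning and 0% with 50% overlap. LNCaP loops found in Ishikawa came to 0% at 5 or more and at 10 or more read pairs, after thinning, with 1 start site, with loops in 2 or more parts, without part 1 and with 50% overlap. Of 184 values for single genes, 39 moved. The cause was not tested. Some of the other values could not move. A gene at 0 stays at 0 when a setting only removes loops, and thinning to the shallowest list leaves the T-47D gene values unchanged. The IGFBP5 loop in Ishikawa, at the minimum of 3 read pairs, was in part 1 alone. INSR in Ishikawa was 5.37 per 100000 without part 3 and 4.61 with 1 start site, or 3.77-fold and 3.24-fold above T-47D, under the 4-fold mark that it passed at 5.40-fold. Without part 3, IGFBP2 in T-47D passed that mark against Ishikawa, at 5.86-fold. Percentiles over all genes and loops per gene were not recomputed. In LNCaP, the median over thinned lists held no loop of INSR, IRS1, IRS2 or IGFBP2.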
